A study of Homo sapiens with 6 samples.

Results

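Integrins and the proteins of focal adhesions were followed in 2 populations of human colorectal cancer cells. The set holds 35 genes: 16 integrin subunits, the tetraspanin CD151, and 18 proteins that link integrins to actin or carry their signals. Members were the probe sets with 1 of these symbols as their only gene, which gave 108 of 41091 such probe sets and 34 of 19775 genes. SW480 is an established colorectal cancer line and M5 a population selected out of SW480 in vivo for its stronger spread to the liver. Both grew in RPMI medium with fetal bovine serum and penicillin/streptomycin, and no other agent is named for either. Each was measured on 3 arrays, which the labels call biological replicates. M5 is a single selected population, so a difference from SW480 cannot be told apart from chance divergence of 1 population. The sources used here do not give the host, the number of selection rounds or the number of founding cells.

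Integrins are receptors made of 1 alpha and 1 beta subunit that hold cells to the extracellular matrix. The pairing sets the ligand: collagen, laminin, or proteins with the short motif Arg-Gly-Asp (RGD), such as fibronectin and vitronectin. Inside the cell, talins and kindlins bind the beta tail, vinculin and alpha-actinins join the complex to actin, and focal adhesion kinase and SRC pass the signal on through docking proteins. Epithelial cells of the gut sit on laminin through alpha6/beta4 and alpha3/beta1, and bind collagen through alpha2/beta1.

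For ITGA2, BCAR3 and ITGA6 the 250 bases before the outermost annotated start are shown, since these members passed the threshold in most of the fits on fewer arrays that called any member. Sequences are from RefSeq (GRCh38.p14), where 25 of the 35 members had a promoter entry. Capitals mark matches, on either strand, to a GC box (GGGCGG), an ETS core (CCGGAA), an AP-1 element (TGANTCA) or a TEAD element (CATTCC), and no matches overlapped.
ITGA2, chr5:52989102-52989351, plus strand: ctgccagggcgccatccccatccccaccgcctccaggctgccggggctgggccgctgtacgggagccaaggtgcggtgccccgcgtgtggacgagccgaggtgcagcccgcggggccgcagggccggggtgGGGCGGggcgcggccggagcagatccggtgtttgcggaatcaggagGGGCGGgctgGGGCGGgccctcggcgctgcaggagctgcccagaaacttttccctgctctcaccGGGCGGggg
BCAR3, chr1:93848152-93848401, minus strand: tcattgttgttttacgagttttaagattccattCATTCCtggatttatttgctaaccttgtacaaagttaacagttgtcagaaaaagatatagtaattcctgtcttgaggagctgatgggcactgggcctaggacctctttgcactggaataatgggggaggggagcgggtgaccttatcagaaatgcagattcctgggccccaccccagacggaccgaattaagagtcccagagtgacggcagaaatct
ITGA6, chr2:172427086-172427335, plus strand: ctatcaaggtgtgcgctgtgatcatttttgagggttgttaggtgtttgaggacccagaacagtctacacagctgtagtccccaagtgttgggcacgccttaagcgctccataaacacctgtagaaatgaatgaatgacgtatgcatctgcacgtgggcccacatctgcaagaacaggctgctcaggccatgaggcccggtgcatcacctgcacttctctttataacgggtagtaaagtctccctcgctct
ITGA2, which has 1 annotated start, held 4 GC boxes and none of the other elements. BCAR3 has 10 annotated starts, and the window shown held 1 TEAD element. ITGA6 has 2 annotated starts, and its window held no match. Over all 35116 promoter windows of this length, 42.6% held a GC box, 14.5% an ETS core, 6.57% an AP-1 element and 11.9% a TEAD element. GC content was 76.4% in the ITGA2 window, 45.6% in that of BCAR3 and 50.8% in that of ITGA6. The arrays do not show which start was used.

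Signals are probe set intensities in arbitrary units, given here after quantile normalisation, and the number of arrays limits their precision. Before normalisation, the 2% trimmed mean of SW480 replicate 1 was 20.95 and that of M5 replicate 1 was 26.98, against 53.41 to 86.41 on the other arrays. These 2 arrays are called the dimmer pair, and the rest the 4 brighter arrays. A control for 18S ribosomal RNA split the arrays another way. Its signal, also before normalisation, was 2823.9 to 4163.4 on the dimmer pair and SW480 replicate 2, and 96.3 to 234.1 on the others. M5 replicates 2 and 3 correlated at r = 0.994 over 4853 bright probe sets, against 0.878 to 0.955 for every other pair of arrays. Over all kept probe sets their r was 0.943, beside 0.944 for SW480 replicates 2 and 3. M5 replicates 2 and 3 were therefore counted as 1 sample in means and SDs, so that n is 2 for M5. The limma fit over 6 arrays keeps them apart, and the fit that averages them is given beside it. On the bright probe sets SW480 replicate 1 correlated more with M5 replicate 1 (r = 0.949) than with the other SW480 arrays (0.901 and 0.906). M5 replicate 1 also correlated less with the other M5 arrays (0.929 and 0.927). Over all kept probe sets the dimmer pair had r = 0.895, beside 0.89 to 0.899 for either array with its own group. P-values measure only the spread between the 6 arrays.

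None of the 30 members that could be tested passed the threshold, an adjusted p under 0.05 in limma with Benjamini-Hochberg adjustment over 14243 genes. Over all genes tested, 0.190% passed. At an unadjusted p under 0.05 in limma, 4 members had higher and 4 had lower signal in M5, which is 26.7% of the members against 11.6% of all genes. The 4 on the higher side were BCAR3, ITGA6, ITGB4 and ITGA3, and the 4 on the lower side ITGA2, ITGAV, ITGB8 and PTK2. Groups of arrays did not overlap for 4 members, BCAR3 and ITGA3 (M5 above SW480) and ITGA2 and TGFB1I1 (M5 below SW480). That is 13.3% of the members, where 16.1% of all genes had groups that did not overlap. The median log2 fold change, M5 minus SW480, was -0.08 over the 30 members and -0.01 over all genes, and the median size without its sign was 0.39 and 0.32. With M5 replicates 2 and 3 averaged, 0 members passed in limma, against 0.0281% of all genes, and 5 of 30 had an unadjusted p under 0.05, beside 5.88% of all genes. Without the intensity trend in limma, 0 members passed and 2 of 30 had an unadjusted p under 0.05, beside 8.32% of all genes.

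**Figure D1:**
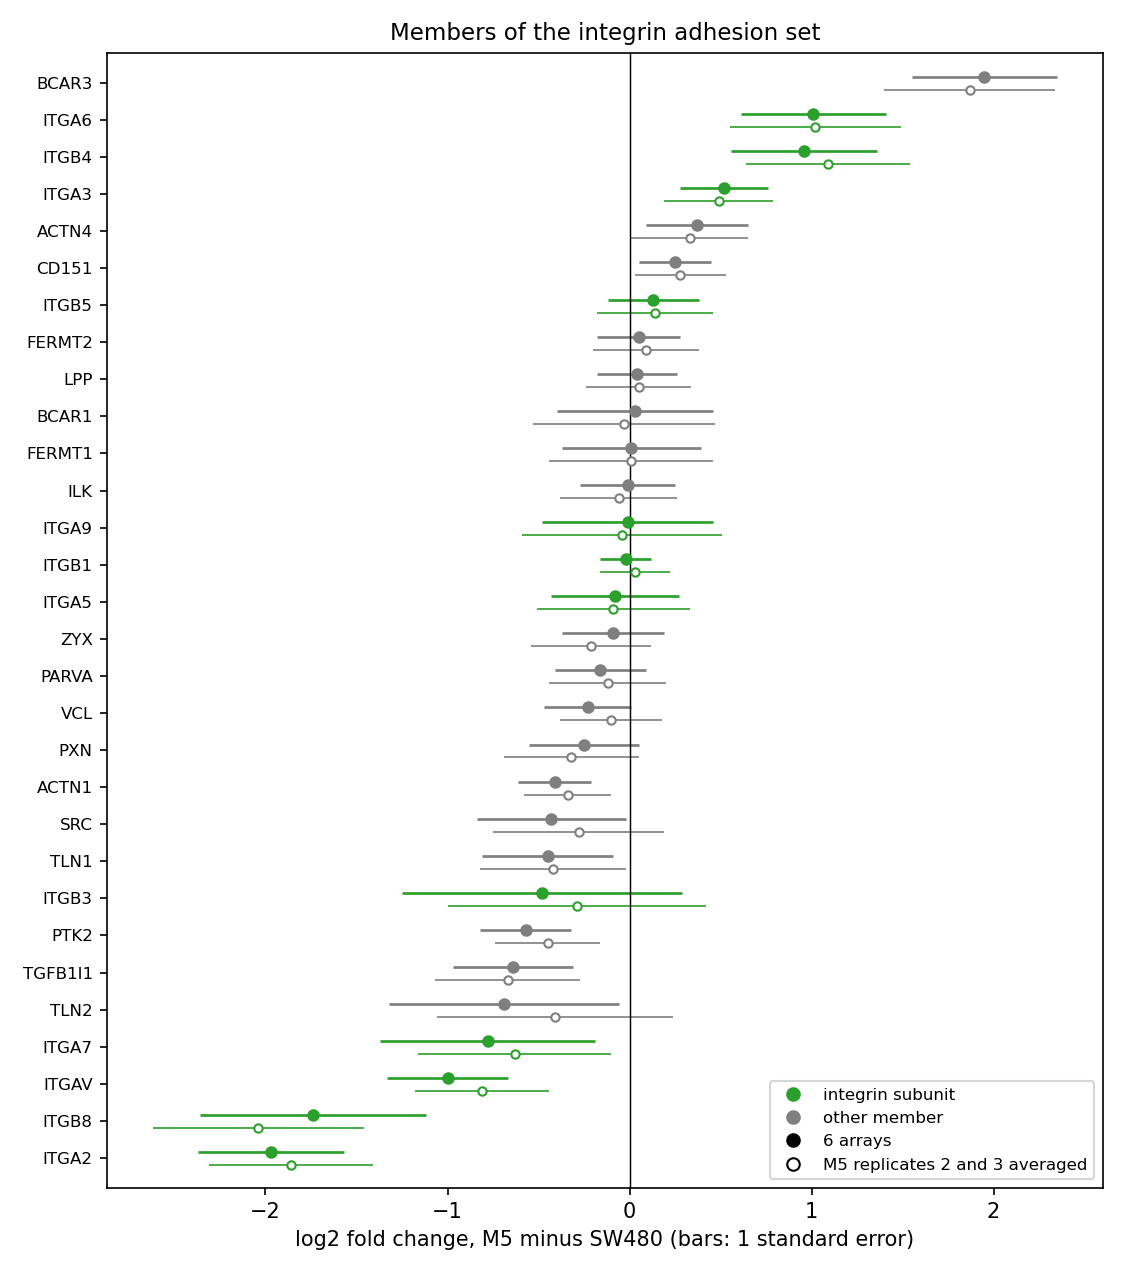
Log2 fold changes (M5 minus SW480) of the 30 tested members with bars of 1 standard error, for the fit over 6 arrays (filled) and with M5 replicates 2 and 3 averaged (open). ITGA2 stands lowest at -1.97 and BCAR3 highest at 1.95, and most of the others lie within 1 unit of 0.

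Of the remaining 5 members, 4 had only dim probe sets, in the lowest 40% of all, and were not tested. These were ITGA1, ITGA4, ITGB7 and LIMS1. The table has no detection calls, so a dim signal does not show that a transcript was absent. ITGB6, the partner of alphaV in epithelial cells, had 0 probe sets with its symbol alone and 4 that name another gene as well, so it was not analysed here. LIMS1, which encodes PINCH1, had 2 further probe sets of that kind.

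Among the collagen receptors, ITGA2 had the largest difference of all 30 tested members over 6 arrays. ITGA2 encodes alpha2, which pairs with beta1 to bind collagen (chromosome 5, 52989352 to 53094779 in GRCh38.p14). Its signal on probe set 227314_at was 156, 321 and 526 on SW480 replicates 1, 2 and 3, and 103, 72.5 and 56.2 on M5 replicates 1, 2 and 3. All 3 M5 arrays lay below all 3 SW480 arrays, and the dimmer arrays of the 2 groups were the closest to each other. SW480 had a mean of 334 ± 186 (SD, n = 3), against 83.5 ± 27.0 (SD, n = 2) for M5. The log2 fold change was -1.97 (standard error, SE, 0.40), and limma gave an adjusted p of 0.119, or 0.472 in the averaged fit. The second probe set, 205032_at, gave 63.7, 76.0 and 62.2 in SW480 and 32.7, 24.8 and 24.5 in M5, which is -1.25 (SE 0.30) as a log2 fold change. Here too the groups did not overlap, and SW480 replicate 1 lay among the other SW480 arrays. ITGA1, whose product is the other collagen-binding alpha chain of the set, lies beside ITGA2 on chromosome 5 (52787916 to 52959209). Its 3 probe sets were all too dim to test, with signals of at most 10.9.

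Among the laminin receptors, 0 of 4 passed in limma, and ITGA6 and ITGB4 had the largest fold changes, both positive. ITGA6 and ITGB4 encode alpha6 and beta4, which form the laminin receptor of hemidesmosomes. ITGB4 signal was 797, 231 and 301 on SW480 replicates 1, 2 and 3 and 1079, 597 and 632 on M5 replicates 1, 2 and 3. ITGA6 signal was 315, 107 and 86.6 on the SW480 arrays and 301, 292 and 276 on the M5 arrays, in the same order. For both genes SW480 replicate 1 stood apart from the other SW480 arrays and inside or above the range of M5, so the groups overlapped. The log2 fold change of ITGB4 was 0.96 (SE 0.40, adjusted p = 0.397 in limma) and that of ITGA6 was 1.01 (SE 0.40, adjusted p = 0.384 in limma). Means were 443 ± 308 (SD, n = 3) and 847 ± 328 (SD, n = 2) for ITGB4, and 170 ± 127 (SD, n = 3) and 293 ± 12.2 (SD, n = 2) for ITGA6, SW480 first. Other probe sets of these genes ran the same way, at 0.91 (SE 0.38) for ITGA6 and at 1.26 (SE 0.44) and 1.4 (SE 0.42) for ITGB4. On the dimmest kept ITGB4 probe set, 211905_s_at, the groups did not overlap, with 95, 23.3 and 49.5 in SW480 and 146, 130 and 116 in M5.

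ITGA3, which encodes the alpha3 chain that binds laminin with beta1, had signals of 147, 101 and 118 on the SW480 arrays and 160, 174 and 189 on the M5 arrays. The groups did not overlap, though the gap between SW480 replicate 1 and M5 replicate 1 was small. Its log2 fold change was 0.52 (SE 0.24, adjusted p = 0.429 in limma). CD151, a tetraspanin that associates with the laminin-binding integrins, had a log2 fold change of 0.25 (SE 0.20, adjusted p = 0.665 in limma) with overlapping groups. ITGA7, a laminin-binding alpha chain best known from muscle, gave dim signals, 17.0, 24.7 and 14.9 in SW480 and 16.1, 17.5 and 3.02 in M5. Only M5 replicate 3 stood apart, and the log2 fold change was -0.78 (SE 0.59, adjusted p = 0.652 in limma). Of the 4 laminin-binding chains, 3 thus had a positive fold change and 1 a negative one, with a median of 0.74.

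**Figure D2:**
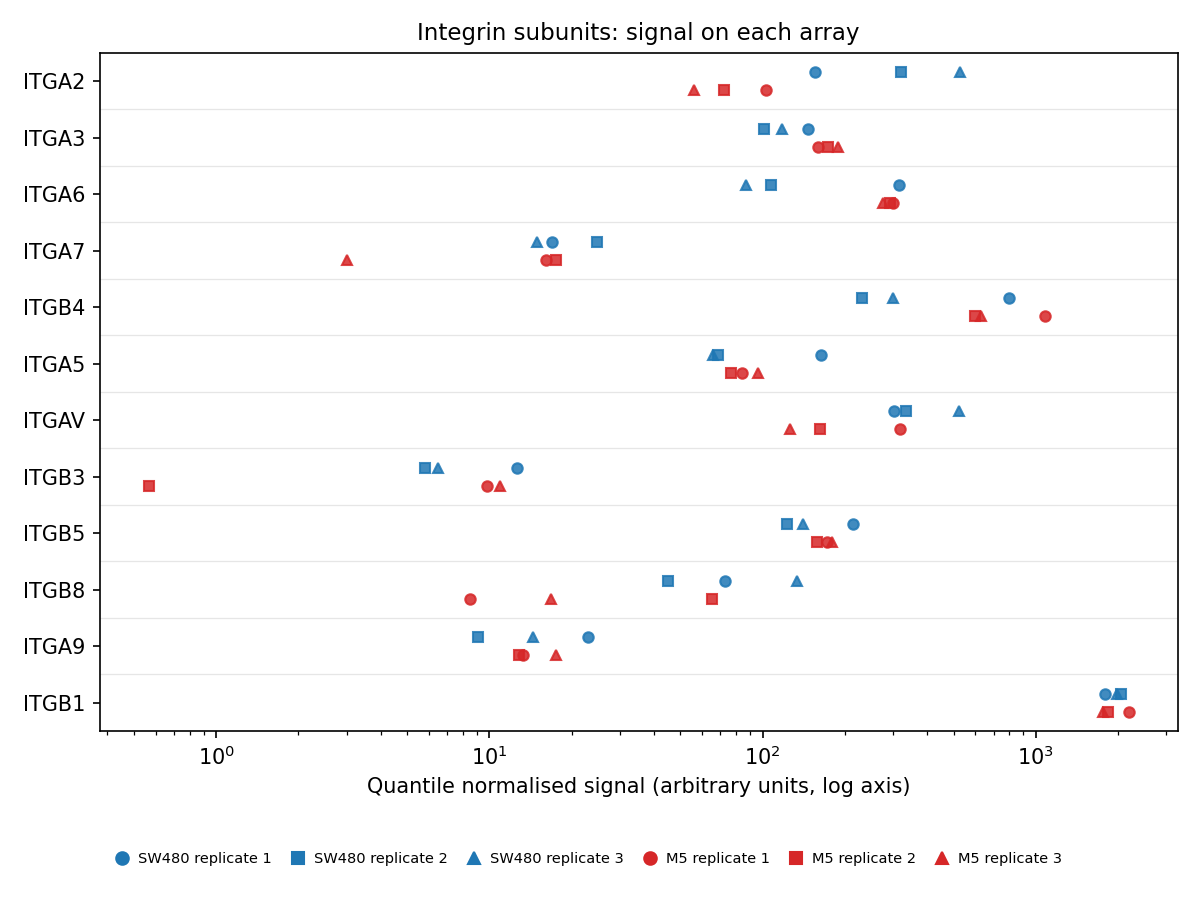
Quantile normalised signal (arbitrary units, log axis) of the 12 tested integrin subunits on each of the 6 arrays, SW480 in blue and M5 in red, with a symbol for each replicate number. The M5 points lie left of all SW480 points for ITGA2 and right of them for ITGA3, while SW480 replicate 1 lies with M5 for ITGA6 and ITGB4.

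Among RGD receptors, ITGAV and ITGB8 had the largest differences. ITGAV encodes alphaV, the chain shared by the vitronectin receptors and by the integrins that release active TGF-beta. Its signal was 302, 334 and 524 on the SW480 arrays and 317, 162 and 126 on the M5 arrays. M5 replicate 1 lay among the SW480 arrays and M5 replicates 2 and 3 lay below them. The log2 fold change was -1.0 (SE 0.33, adjusted p = 0.323 in limma). ITGB8 encodes beta8, a partner of alphaV in TGF-beta activation. Its signal was 73.0, 45.0 and 134 on the SW480 arrays and 8.48, 65.2 and 16.8 on the M5 arrays, with M5 replicate 2 inside the SW480 range. The log2 fold change was -1.74 (SE 0.62, adjusted p = 0.349 in limma), and a second, dimmer probe set gave 0.52 (SE 0.70). M5 replicates 2 and 3, so alike on bright probe sets, thus differed widely on this gene.

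The other RGD receptor chains showed less. ITGA5, the alpha chain of the classical fibronectin receptor, had a log2 fold change of -0.08 with a 95% interval of -0.85 to 0.69, and its highest signal was on SW480 replicate 1 (163, against 65.6 to 96.5 on the other arrays). ITGB5, which pairs with alphaV, had one of 0.13 (95% interval -0.43 to 0.69). Dimmer kept ITGB5 probe sets gave -0.03 (SE 0.33), -0.54 (SE 0.39) and -0.88 (SE 0.61), with overlapping groups. ITGB3, the beta chain of platelets and endothelium, was dim on every array, between 0.567 and 12.6. Its log2 fold change was -0.48 (SE 0.77, adjusted p = 0.854 in limma), while its other kept probe set gave 1.04 (SE 0.70), so no direction can be given. In the alpha4 and alpha9 group, whose members bind fibronectin variants, tenascin or vascular adhesion molecules, only ITGA9 was tested. Its log2 fold change was -0.01 (95% interval -1.04 to 1.02). ITGA4 and ITGB7, which together form a homing receptor of lymphocytes, had signals of at most 12.9 and 15.3.

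The beta1 chain, ITGB1, is the shared partner of alpha2, alpha3, alpha5, alpha6 and many more. Its signal was 1796, 2056 and 1988 on the SW480 arrays and 2184, 1841 and 1768 on the M5 arrays. The ranges overlapped throughout, and the log2 fold change was -0.02 (SE 0.14, adjusted p = 0.977 in limma) with a 95% interval of -0.33 to 0.30. A further pair of well lit probe sets gave -0.20 (SE 0.17) and 0.01 (SE 0.22). A dim one of the kind shared between similar sequences, 216178_x_at, gave 1.34 (SE 0.61) from signals of at most 20.6, with groups that did not overlap.

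Among activators and actin links, 0 of 7 passed in limma, and 3 had positive and 4 negative fold changes with a median of -0.23. The range was -0.69 to 0.37. TLN1 encodes talin-1, which switches integrins on and ties them to actin. Its signal was 79.6, 51.8 and 39.4 on the SW480 arrays and 42.4, 29.1 and 50.4 on the M5 arrays, a log2 fold change of -0.45 (SE 0.36, adjusted p = 0.674 in limma). A dimmer TLN1 probe set pointed the other way, at 1.88 (SE 0.64). It gave 0.667, 9.05 and 7.33 in SW480 and 20, 26.4 and 17.3 in M5, so its groups did not overlap. TLN2, the second talin gene, was dim, at 3.22 to 22.0 on all arrays, with a log2 fold change of -0.69 (SE 0.63, adjusted p = 0.721 in limma).

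Kindlins bind the beta tail beside talin. FERMT1, the epithelial kindlin-1 gene, gave 381, 132 and 119 on the SW480 arrays and 181, 168 and 203 on the M5 arrays. SW480 replicate 1 was high and the other SW480 arrays lay below all of M5, and the log2 fold change was 0.01 (95% interval -0.82 to 0.85). FERMT2, the gene of kindlin-2, had a log2 fold change of 0.05 (SE 0.23). Its dimmer kept probe sets gave 0.52 (SE 0.28), with groups that did not overlap, and 0.35 (SE 0.33), with groups that did. VCL, the vinculin gene, had one of -0.23 (SE 0.24) with M5 replicate 1 at 590, above every SW480 array, and M5 replicates 2 and 3 at 361 and 321, below them. The alpha-actinin genes ACTN1 and ACTN4 had log2 fold changes of -0.41 (SE 0.20, adjusted p = 0.454 in limma) and 0.37 (SE 0.28, adjusted p = 0.646 in limma).

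The complex of integrin-linked kinase (ILK), PINCH and parvin couples beta tails to actin. ILK had a log2 fold change of -0.01 (95% interval -0.58 to 0.56) and PARVA, the alpha-parvin gene, one of -0.16 (95% interval -0.72 to 0.39). PARVA was measured by 6 kept probe sets, with fold changes from -0.66 to 0.39. On the lowest of them, 222454_s_at, the groups did not overlap, with 72.2, 40.2 and 46.9 in SW480 and 32.2, 37.4 and 27 in M5. Intervals as wide as those of ILK and PARVA do not show that levels were equal.

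In the group of kinases and docking proteins, BCAR3 had the largest difference. BCAR3 encodes an SH2 adaptor that binds the docking protein p130Cas, the product of BCAR1, and was first known for its part in antiestrogen resistance of breast cancer cells (chromosome 1, 93561741 to 93848151 in GRCh38.p14). Its signal on its single probe set, 204032_at, was 179, 46.2 and 87.7 on SW480 replicates 1, 2 and 3, and 287, 404 and 376 on M5 replicates 1, 2 and 3. All M5 arrays lay above all SW480 arrays. SW480 had a mean of 104 ± 67.8 (SD, n = 3), against 339 ± 72.6 (SD, n = 2) for M5. The log2 fold change was 1.95 (SE 0.40, adjusted p = 0.121 in limma), or 1.87 (SE 0.47, adjusted p = 0.495 in limma) in the averaged fit. BCAR1 itself gave 71.7, 23.3 and 27.8 on the SW480 arrays and 30.8, 34.8 and 46.8 on the M5 arrays, a log2 fold change of 0.03 (95% interval -0.92 to 0.98). Again SW480 replicate 1 was highest and the other SW480 arrays lay below M5.

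PTK2 encodes focal adhesion kinase. Its signal was 351, 480 and 443 on the SW480 arrays and 404, 239 and 232 on the M5 arrays, so that M5 replicate 1 lay inside the SW480 range and M5 replicates 2 and 3 below it. The log2 fold change was -0.57 (SE 0.25, adjusted p = 0.412 in limma), and its other kept probe sets gave -0.20, 0.22 and 0.35. SRC, the tyrosine kinase that acts with it, had -0.43 (SE 0.41, adjusted p = 0.736 in limma), and PXN, the paxillin gene, -0.25 (SE 0.30, adjusted p = 0.795 in limma). Dimmer kept probe sets pointed the other way, at 0.71 (SE 0.60) and 0.82 (SE 0.76) for SRC and 0.10 (SE 0.44) for PXN.

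LIM proteins of adhesions gave 1 member with groups that did not overlap. TGFB1I1 encodes Hic-5, a relative of paxillin, and had signals of 127, 67.4 and 61.5 on the SW480 arrays and 46.7, 56.2 and 51.6 on the M5 arrays. The M5 arrays were lower, but 2 of the SW480 arrays lay close above them. Its log2 fold change was -0.64 (SE 0.33, adjusted p = 0.486 in limma). ZYX, the zyxin gene, had -0.09 (95% interval -0.70 to 0.52), and its second probe set gave -0.59 (SE 0.38). LPP, a zyxin relative, had 0.04 (95% interval -0.45 to 0.53).

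**Figure D3:**
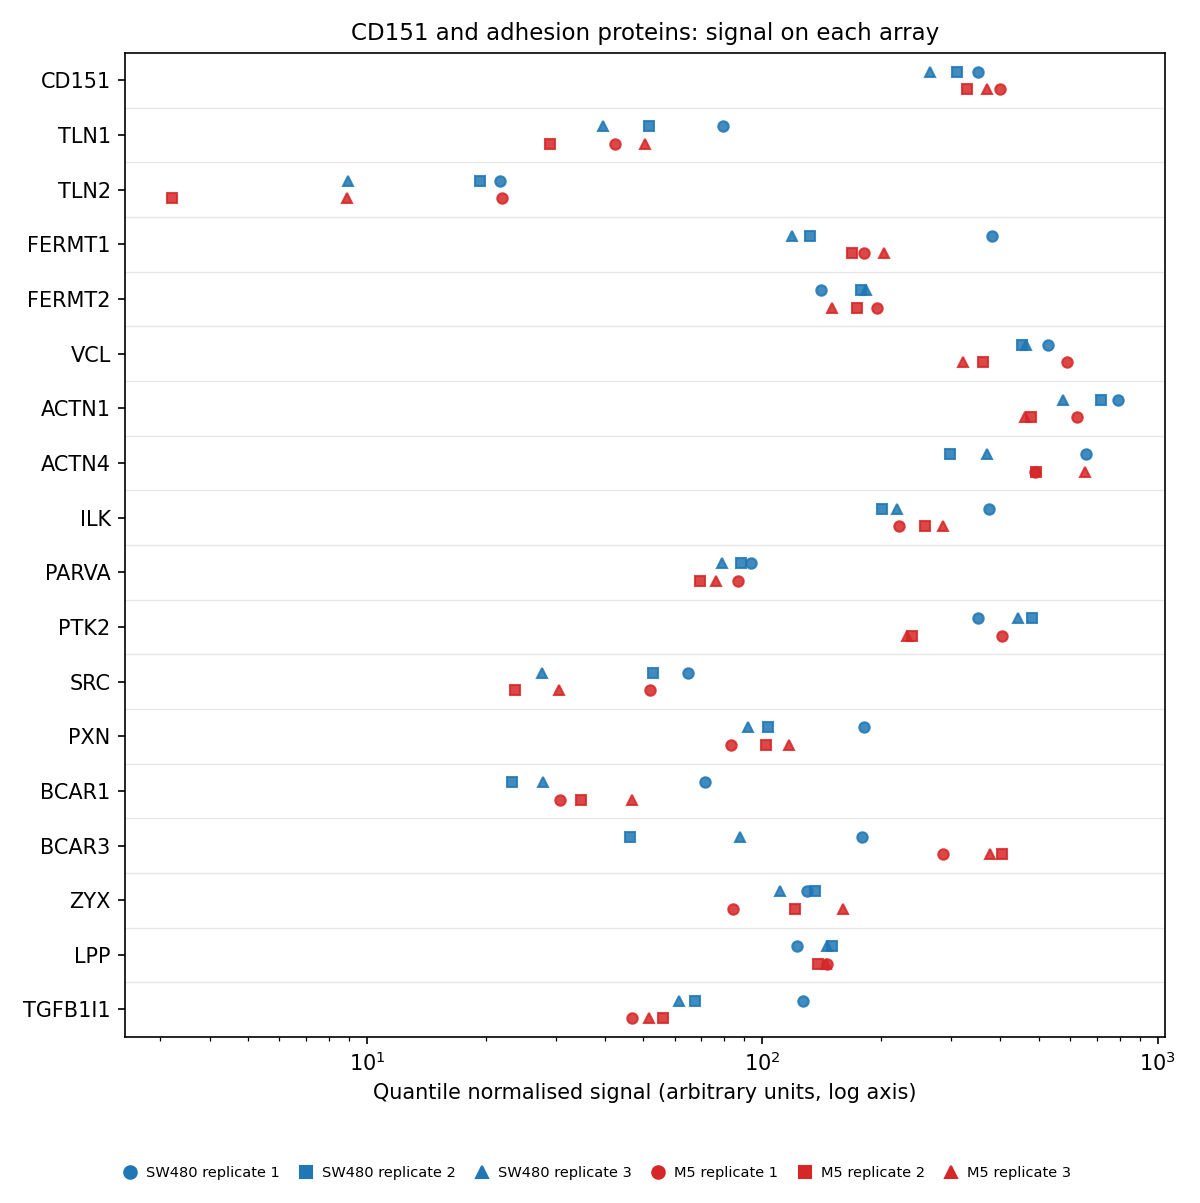
Quantile normalised signal (arbitrary units, log axis) of CD151 and the 17 other tested adhesion proteins on each of the 6 arrays, SW480 in blue and M5 in red, with a symbol for each replicate number. BCAR3 is the only one here with all M5 points right of all SW480 points, TGFB1I1 the only one with all of them left, and SW480 replicate 1 is the highest SW480 point for most genes.

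Most members, though not all, shared 1 feature across arrays that the groups do not give. SW480 replicate 1 was the highest of the 3 SW480 arrays for 21 of the 30 members (70.0%), where it was the highest for 38.4% of all genes. It was the lowest for 6 members (20%), ITGA2, ITGAV and PTK2 among them, and for 39.4% of all genes. Its median distance from the mean of the other SW480 arrays was 0.67 on the log2 scale over the members and -0.00 over all genes. M5 replicate 1 was the highest of its group for 14 of the 30 members (46.7%), against 39.6% of all genes. These are descriptions of the arrays, and what sets SW480 replicate 1 apart on these genes was not tested.

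Members were also compared on 2 separate sets of arrays, where signs agreed about as seldom as over all genes. On the dimmer pair and on the 4 brighter arrays, which share no array, the difference between M5 and SW480 had the same sign for 13 of the 30 members (43.3%) and for 50.6% of all genes. Differences on the dimmer pair were -0.59 for ITGA2, 0.68 for BCAR3, 0.44 for ITGB4 and 0.12 for ITGA3, each the same way as on the brighter arrays and smaller. They were -0.07 for ITGA6, 0.07 for ITGAV and 0.20 for PTK2, where the brighter arrays gave 1.55, -1.54 and -0.96. ITGB8 and TGFB1I1 differed more on the dimmer pair, by -2.88 and -1.41, than on the brighter arrays, by -1.17 and -0.25. Split by the 18S control, high signal first, the differences were -1.11 and -3.01 for ITGA2, 1.64 and 2.13 for BCAR3, 0.71 and 1.69 for ITGA6 and 1.32 and 1.03 for ITGB4. For ITGAV they were -0.00 and -1.86 and for PTK2 -0.02 and -0.91. SW480 replicate 2, of high 18S signal, lay above M5 replicates 2 and 3, of low 18S signal, at 334 for ITGAV and 480 for PTK2. Group and 18S signal both differ in that comparison and cannot be told apart there. M5 replicate 1 is both the dimmer M5 array and the only M5 array of high 18S signal. Within M5 the 2 splits therefore cannot be told apart.

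**Figure D4:**
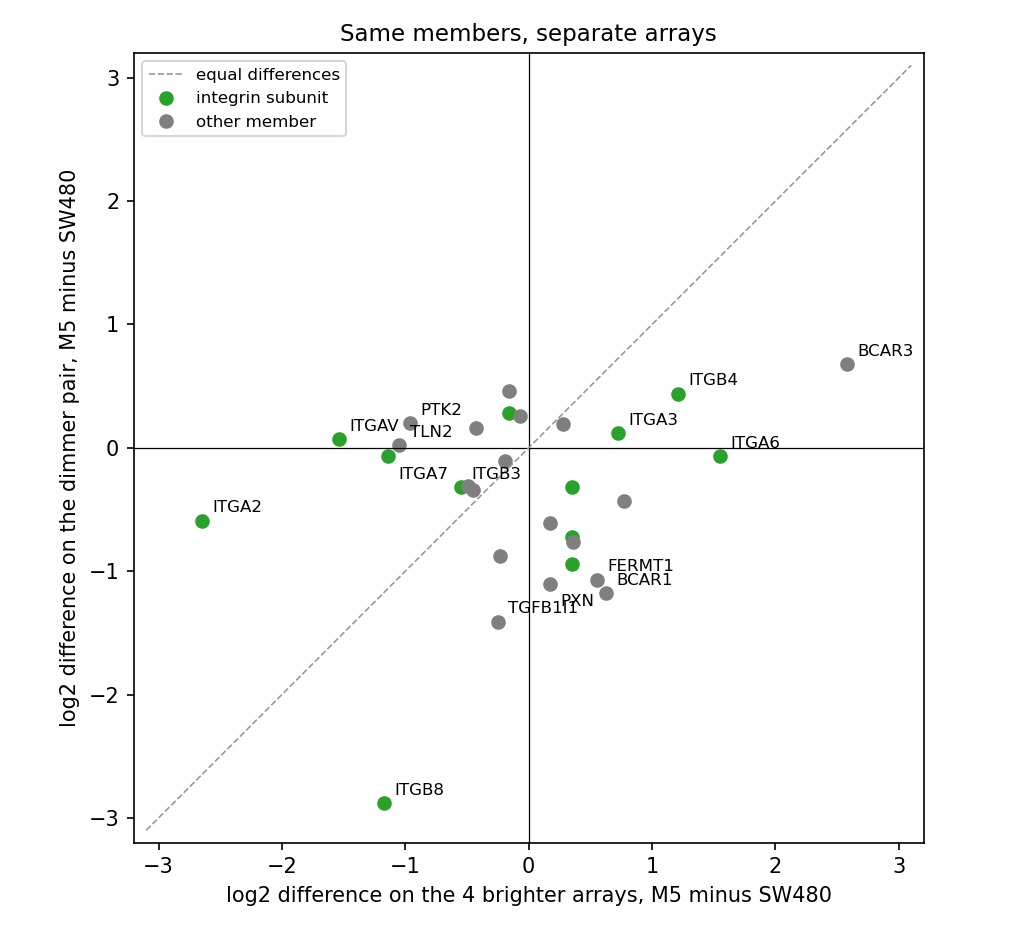
Log2 difference (M5 minus SW480) of each tested member on the 4 brighter arrays (horizontal) and on the dimmer pair (vertical), with the dashed line where both are equal. ITGA2 and BCAR3 lie far out horizontally, at -2.65 and 2.58, but within 1 unit of 0 vertically.

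Without the dimmer pair, limma called 5 members higher in M5, BCAR3, ITGA6, ITGB4, ACTN4 and ITGA3. That is 16.7% of the members, where 5.03% of all genes were called higher. It called 3 lower, ITGA2, ITGAV and PTK2, or 10.0% of the members, where 6.38% of all genes were called lower. PTK2 was called on its brightest probe set, while its other kept probe sets differed by -0.38, 0.77 and 0.29 on these arrays. In this fit ITGA2 fell by 2.65 on the log2 scale (SE 0.26, adjusted p = 0.000793 in limma) and BCAR3 rose by 2.58 (SE 0.28, adjusted p = 0.000971 in limma). ITGA6 rose by 1.55 (limma adjusted p = 0.00181) and ITGB4 by 1.21 (limma adjusted p = 0.00349), while ITGAV fell by 1.54 (limma adjusted p = 0.00487). As M5 replicates 2 and 3 are so alike, these p-values are too small if the 2 arrays are not independent. With them averaged as well, ITGA2, BCAR3 and ITGA6 passed, with limma adjusted p of 0.00666, 0.0132 and 0.0459. The background was then 0.786% of genes called higher and 1.11% called lower, and the spread of the single M5 sample left was taken from the SW480 arrays. Leaving out SW480 replicate 1 alone gave 4 calls (BCAR3, ITGA6 and ITGB4 higher, ITGA2 lower at -2.43 with an adjusted p of 0.00787 in limma), where 0.744% of all genes were called higher and 0.400% lower. Leaving out M5 replicate 1 alone gave 2 (ITGA2 lower at -2.19 with an adjusted p of 0.0413 in limma, and ITGAV), where 0.737% of all genes were called higher and 1.07% lower.

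Other genes of the same system gave 0 calls over 6 arrays in limma. Of 11 further integrin subunits 9 were tested, of 60 further adhesion proteins 48, of 34 matrix ligands 27, and of 16 tetraspanins and other partners 15. Their median log2 fold changes were 0.18, -0.01, -0.23 and 0.18, beside -0.01 for all genes. At an unadjusted p under 0.05 in limma there were 0, 12, 6 and 1 of them. The share was 25.0% for the adhesion proteins and 22.2% for the ligands, against 11.6% of all genes. CAV1, the caveolin-1 gene, gave 2023, 1153 and 972 on the SW480 arrays and 3814, 3177 and 3039 on the M5 arrays. Its groups did not overlap, and its log2 fold change of 1.34 (SE 0.24) had a limma adjusted p of 0.069, or 0.279 in the averaged fit. Of the 48 adhesion proteins, groups did not overlap for 7 with M5 above SW480 and 7 with M5 below. That is 29.2%, against 16.1% of all genes. The tensin genes TNS4 and TNS3 had log2 fold changes of 1.04 (SE 0.37) and -1.01 (SE 0.32) with limma adjusted p of 0.347 and 0.306.

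Among the 27 ligands, groups did not overlap for 2 with M5 above SW480 and 3 with M5 below, or 18.5%, against 16.1% of all genes. The 3 with M5 below were HSPG2, the perlecan gene, COL3A1, a fibrillar collagen gene, and TGFB1, whose latent form alphaV integrins bind. HSPG2 had a log2 fold change of -1.53 (SE 0.59, adjusted p = 0.383 in limma), COL3A1 one of -1.31 (SE 0.33, adjusted p = 0.224 in limma) and TGFB1 one of -0.91 (SE 0.29, adjusted p = 0.306 in limma). HSPG2 rested largely on SW480 replicate 1, at 222 against 47.2 to 56.6 on the other SW480 arrays, and its difference was -3.98 on the dimmer pair and -0.30 on the brighter arrays. The 2 with M5 above were THBS1, the thrombospondin-1 gene, at 0.58 (SE 0.33, adjusted p = 0.54 in limma), and COL4A2, a basement membrane collagen gene, at 0.33 (SE 0.44, adjusted p = 0.818 in limma). THBS1 and COL4A2 were named after their values were seen. Among the partners, CD46, a complement regulator found with beta1 integrins, had -0.67 (SE 0.19, adjusted p = 0.256 in limma) and the tetraspanin TSPAN4 0.38 (SE 0.22, adjusted p = 0.54 in limma).

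Markers of the cell type and of other cells were set beside these values, since leukocytes, platelets, fibroblasts and endothelium carry integrins of their own. Epithelial markers summed to 9131 to 12835 on the SW480 arrays and 11336 to 12191 on the M5 arrays, with 7 of 9 above the filter. Of these 7, 5 had positive and 2 negative log2 fold changes, from -0.49 for KRT20 to 0.76 for KRT19, and 0 passed in limma. The groups did not overlap for KRT20 alone (M5 below SW480), or 14.3%, against 16.1% of all genes. CDX2 and GPA33, which mark intestinal epithelium, were below it, with signals of at most 13.4 and 10.0. Summed leukocyte markers were 40.4 to 140 in SW480 and 99.5 to 230 in M5, with 4 of 7 above the filter (CD68 had no probe set of its own symbol alone), and LYZ differed the most among them. LYZ gave 73.5, 1.22 and 23.5 on the SW480 arrays and 63.9, 146 and 161 on the M5 arrays, with overlapping groups and a log2 fold change of 2.72 that did not pass in limma. The defining leukocyte gene PTPRC gave at most 11.3. Fibroblast markers summed to 123 to 172 and 98.2 to 157, endothelial ones to 15.0 to 38.0 and 22.4 to 35.9, and platelet ones to 16.9 to 42.3 and 31.4 to 47.0, SW480 first. The filter kept 5 of 7 fibroblast, 1 of 5 endothelial and 2 of 4 platelet markers. The part of other cells in the integrin values was not tested, and in RNA of whole populations fewer cells of a type and less RNA per cell cannot be told apart.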

How the data were processed

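Total RNA of SW480 and M5 cells, 3 arrays each, was measured on Affymetrix U133 Plus 2.0 arrays. The authors deposited linear intensities, 1 per probe set, from GCOS 1.4 per the submitters' processing notes. The sources used here do not state their scaling, detection calls or genome build. Of 54675 probe sets, 62 are controls and 41091 others have 1 symbol in the platform annotation of 2016. Gene IDs matched RefSeq (GRCh38.p14) for 41037 of these, and 0 symbols changed.

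Arrays were quantile normalised and tested as log2(signal + 1.7), with the 20th percentile of the deposited intensities as pseudocount. This scale understates changes of dim genes. Probe sets whose mean fell in the lowest 40% were dropped. The groups were compared by limma 3.58.1 (lmFit, eBayes with trend, R 4.3.3), two-sided, over 32768 probe sets. A gene was its brightest kept probe set, and p-values were adjusted over 14243 genes by Benjamini-Hochberg, with a threshold of 0.05. Full statistics were planned for members past the threshold and the 12 with the largest fold change; others were given by role, and their errors were added later. From the other lists, up to 3 genes with groups that do not overlap were named. Alternatives changed the scaling, pseudocount, filter, variance model, probe set, blocks and arrays, and the genes adjusted over, the last chosen after the data were seen. The members and lists were chosen with earlier results of these data known. Scripts were tested on simulated data. Figures were drawn with matplotlib 3.10.9.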

Additional observations from a re-analysis of the deposited data

How the results depend on the processing

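Over 6 arrays, 0 members were called higher and 0 lower in M5. These counts stayed at 0 without scaling, with arrays centred on the median, with the smaller (0.425) and larger (6.8) pseudocount, with no filter or the 60% filter, without the trend, with all kept probe sets of a gene averaged, with M5 replicates 2 and 3 averaged, with p-values adjusted over all probe sets, and with blocks for the dim arrays or the 18S control. With the replicate block, 0 members were called in either direction. Over all kept probe sets, replicate numbers paired the arrays little: same-numbered arrays had r of 0.11, 0.02 and 0.07 between their deviations. On bright probe sets, though, the replicate 1 arrays of SW480 and M5 correlated at r = 0.949, above the r of either with its own group. Without the dimmer pair, 5 members were higher and 3 lower, and 2 and 1 when M5 replicates 2 and 3 were also averaged. Leaving out 1 array gave 0 to 3 higher and 0 to 2 lower, where 0 to 0.744% of all genes were called higher and 0.014 to 1.07% lower. Without SW480 replicate 1, BCAR3, ITGA6 and ITGB4 were higher and ITGA2 lower; without M5 replicate 1, ITGA2 and ITGAV were lower. The cause was not tested. Of the 12 members with full statistics, only ITGB3 turned its sign: 0.28 with its probe sets averaged, and -0.91 to 0.33 with 1 array left out. With kept probe sets averaged, the fold change of PTK2 was -0.05 and that of ITGB8 -0.61. ITGB3 and TLN2 had no value under the 60% filter. Of all 30, 27 kept their sign without scaling, 24 with median centring, 23 without the dimmer pair and 21 with all kept probe sets averaged. Among the 20 members with several kept probe sets, 7 had them all in 1 direction. Without detection calls, dim signals such as those of ITGB3, ITGA7 and TLN2 set no firm fold.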
